A study of Mus musculus with 6 samples.

Results

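The Hox genes encode homeodomain transcription factors and lie in 4 clusters, HoxA, HoxB, HoxC and HoxD, where they are numbered by paralog group from 1 to 13. They were examined in the whisker pad, the facial skin that carries the vibrissae, of homozygous Trps1 mutant and wild-type mouse embryos at E12.5, the stage at which the vibrissa placodes form. All probe sets that the array's annotation assigns to a single symbol made of Hoxa, Hoxb, Hoxc or Hoxd and a number were taken, 37 of the 22626 mouse probe sets. They measure 31 of the 39 Hox genes in the mouse reference annotation. Another 4 probe sets lay outside that rule, 3 that name several Hox genes and 1 for the antisense transcript Hoxa11os. RNA came from 3 mutant and 3 wild-type embryos, 1 Affymetrix MOE430A array each, from whole dissected pads. The labels state neither the Trps1 allele nor the strain, and they name no other allele or treatment.

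In vertebrate embryos Hox genes are expressed in nested domains along the body axis, low-numbered genes from the hindbrain backwards and high-numbered genes towards the tail, limbs and genitalia. The neural crest that fills the frontonasal and maxillary prominences, from which the whisker pad arises, comes from levels in front of the Hox domains and is known as Hox-negative. The second pharyngeal arch, by contrast, is patterned by Hoxa2. A transcript level in a whole pad averages all its cells, and fewer cells of a type cannot be told apart from less RNA per cell.

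Trps1, the targeted gene, read 1297.3, 1491.9 and 1506.7 in mutant pads against 807.6, 1061.4 and 748.1 in wild-type pads at its 1 probe set, and where that probe set lies relative to the mutation is not stated in the sources used here. All 6 arrays had the same 2% trimmed mean (250.1). Actin control probe sets at the 3' and 5' end, whose ratio tells of RNA length, gave a ratio of 1.35 on mutant replicate 3 and 1.07 to 1.19 on the other 5. Wild-type replicate 3 read as female by Xist (461.5, against 44 to 93.7 on the other arrays), and the labels give no sex. Of 16 facial mesenchyme markers measured, 12 (75%) were above the level defined next on all 6 arrays, where 66.3% of all genes were. None (0) of the markers was at or below it throughout. Among them Prrx1 read 1668.4, 2000.2 and 2732 in mutant pads and 2226.4, 1907.6 and 2490.6 in wild-type pads.

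Most Hox probe sets read no higher than the highest bacterial control on any array. The 27 control probe sets for Bacillus genes, which mice do not have, read 0.4 to 33.8 over the 6 arrays, and 33.8 was taken as the level of background. Of the 37 Hox probe sets, 4 (10.8%) read above it on all 6 arrays, where 61.5% of all mouse probe sets did. A further 13 were above it on 1 to 5 arrays, and 20 (54.1%) on 0 arrays, where 17.3% of all mouse probe sets were on 0. Those 20 read 0.6 to 32.1 with a median of 6.1. The level of 33.8 is the highest of the control values, not a typical one. The median Hox signal was 11.2, 17.3 and 14.3 on the mutant arrays, where the median control read 4, 8.4 and 3.4. On the wild-type arrays the median Hox signal was 15.8, 12.1 and 16, and the median control read 4, 8.2 and 7.7. The number of Hox probe sets above background was 10, 10 and 8 on the mutant arrays and 10, 8 and 10 on the wild-type arrays, so the counts of the groups overlapped. A probe set at this level shows that its transcript was not distinguishable from background on these arrays, not that it was absent.

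**Figure D1:**
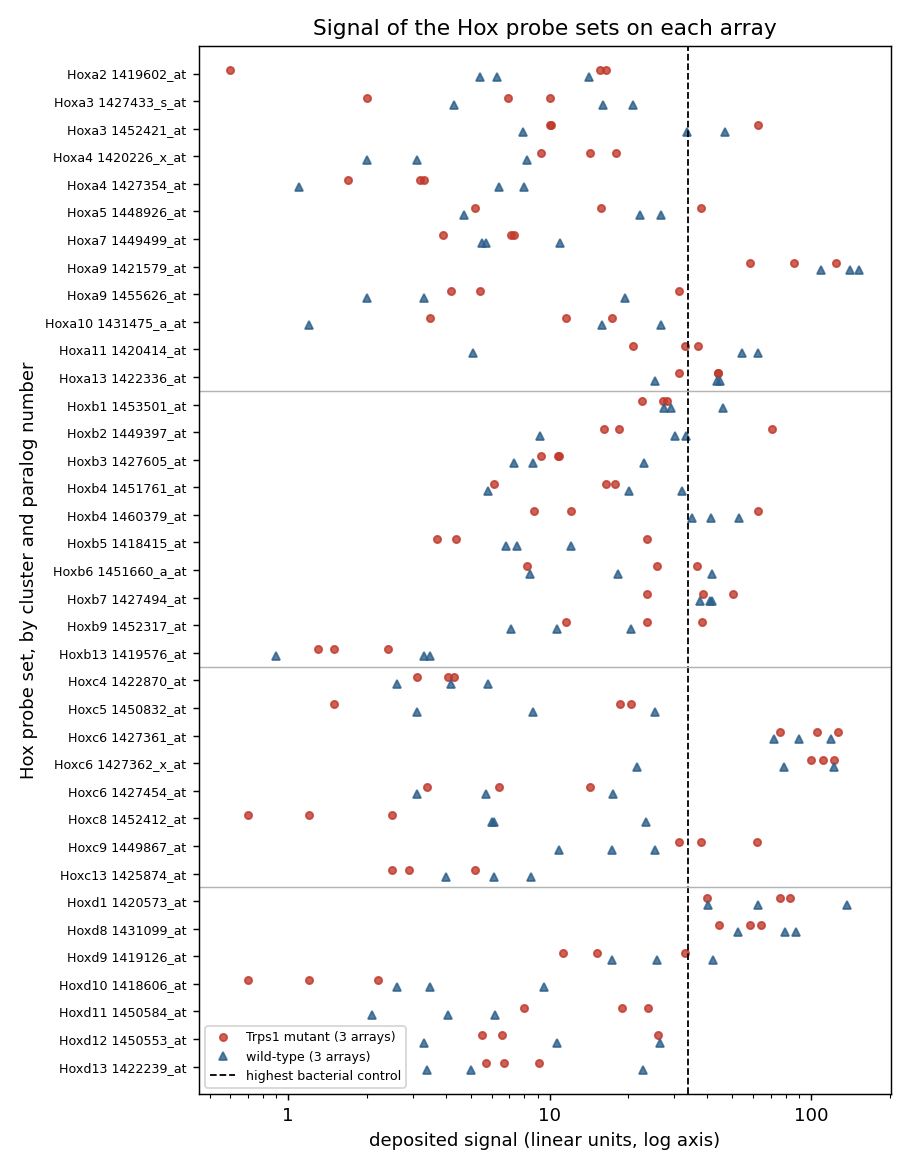
Deposited signal (log axis) of each of the 37 Hox probe sets on the 6 arrays, with mutant embryos as circles above wild-type embryos as triangles in each row and the highest bacterial control (33.8) as a dashed line. Most points lie left of the line, and the probe sets of Hoxa9 (1421579_at), Hoxc6 (1427361_at), Hoxd1 and Hoxd8 lie right of it on every array.

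The genes above background were scattered over the clusters. HoxA had 1 of 12 probe sets above background on all arrays (Hoxa9), HoxB 0 of 10, HoxC 1 of 8 (Hoxc6) and HoxD 2 of 7 (Hoxd1 and Hoxd8). By paralog number the counts were 1 of 7 for paralogs 1 to 3, 2 of 16 for paralogs 4 to 8 and 1 of 14 for paralogs 9 to 13. The neighbours of these genes in the reference order were mostly at background. Hoxa7 and Hoxa10, on either side of Hoxa9, were above it on 0 arrays, as were Hoxc5 and Hoxc8 beside Hoxc6. Hoxd9, next to Hoxd8, was above it on 1 array, wild-type replicate 1 at 42, and both probe sets shared by Hoxd3 and Hoxd4 were above it on 0.

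**Figure D2:**
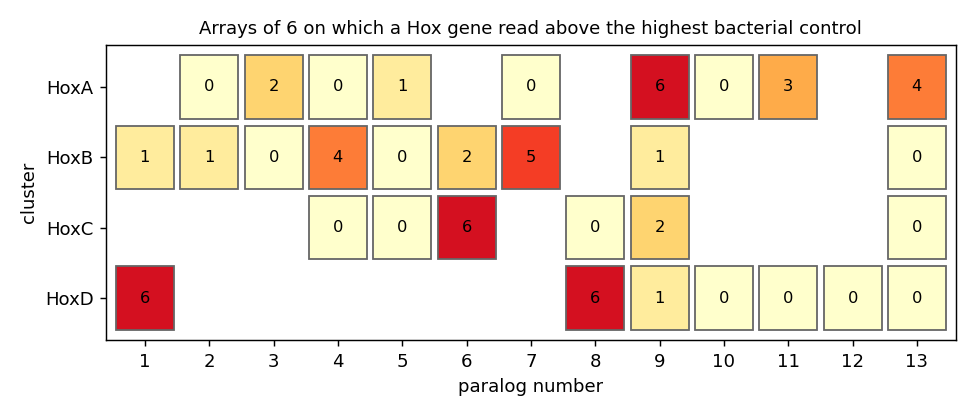
Number of arrays, of 6, on which each Hox gene read above the highest bacterial control (33.8), by cluster (rows) and paralog number (columns), taking the probe set with the highest number. Cells are drawn for the 31 measured genes, and blank positions were not analysed here. Only Hoxa9, Hoxc6, Hoxd1 and Hoxd8 reach 6.

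Among the genes with a known place in the head or in hair, Hoxa2, the selector gene of the second arch, read 16.5, 15.6 and 0.6 in mutant pads against 6.3, 5.4 and 14.1 in wild-type pads. Hoxc13, which drives keratin genes of the hair shaft later in development, read 2.5, 5.2 and 2.9 in mutant pads against 4, 6.1 and 8.5 in wild-type pads. Every one of these 12 values lay under 33.8. Hoxb1, a gene of the hindbrain, was above background on 1 array, wild-type replicate 1 at 46.2, and Hoxb2, of the hindbrain and second arch crest, on mutant replicate 2 alone at 71.1. The other array values of Hoxb1 and Hoxb2 were 9.2 to 33.2.

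Sequence is shown for those genes above background on all arrays that have an entry among the RefSeq promoter windows of build GRCm38.p6, which are Hoxa9, Hoxd1 and Hoxd8. Of the 31 measured Hox genes 18 had an entry. Each sequence is the 250 bases before the annotated start, 5' to 3' on the gene's strand, with the dinucleotide CG, the site of DNA methylation, in capitals. The windows are chr6:52227371-52227620 (minus strand), chr2:74762730-74762979 (plus strand) and chr2:74704365-74704614 (plus strand).
Hoxa9: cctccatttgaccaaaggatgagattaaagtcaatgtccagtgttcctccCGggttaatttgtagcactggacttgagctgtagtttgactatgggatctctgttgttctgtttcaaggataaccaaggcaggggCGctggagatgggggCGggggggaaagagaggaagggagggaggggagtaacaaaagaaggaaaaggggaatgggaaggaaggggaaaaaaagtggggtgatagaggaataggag
Hoxd1: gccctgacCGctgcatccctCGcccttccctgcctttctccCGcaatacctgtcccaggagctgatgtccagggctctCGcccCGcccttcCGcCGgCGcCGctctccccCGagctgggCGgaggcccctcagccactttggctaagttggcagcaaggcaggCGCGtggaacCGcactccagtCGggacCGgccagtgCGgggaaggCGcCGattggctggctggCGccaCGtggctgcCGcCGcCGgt
Hoxd8: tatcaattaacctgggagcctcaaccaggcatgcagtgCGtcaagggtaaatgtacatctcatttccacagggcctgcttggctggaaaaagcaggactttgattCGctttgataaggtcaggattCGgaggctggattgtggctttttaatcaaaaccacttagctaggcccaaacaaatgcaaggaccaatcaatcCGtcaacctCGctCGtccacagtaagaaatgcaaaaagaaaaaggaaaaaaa
CG, which reads the same on both strands, occurred 3 times before Hoxa9, 24 times before Hoxd1 and 6 times before Hoxd8. Over the 20 windows of the 18 Hox genes the median was 13 (2 to 35), and over all 32851 windows of that length it was 6 (0 to 56). The median of the 3 windows shown was 6, and Hoxd1 lay above the median of the family while Hoxa9 and Hoxd8 lay below it. The arrays did not measure which start was used.

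Hoxa9, known for its part in blood progenitors, was above background on every array at probe set 1421579_at. It read 85.9, 124.8 and 58.5 in mutant pads and 152.6, 140.4 and 108.7 in wild-type pads. Wild-type replicate 3, the lowest wild-type array, lay between the mutant values, so the groups overlapped. The difference, mutant minus wild-type on the log2(signal + 16) scale used for all differences here, was -0.54 (95% interval -1.14 to 0.06, limma adjusted p = 0.966 over all probe sets). Without mutant replicate 3 it was -0.31, and without mutant replicate 2 it was -0.77. The other Hoxa9 probe set, 1455626_at, read 5.4, 4.2 and 31.3 in mutant pads against 19.4, 2 and 3.3 in wild-type pads, all under 33.8. The level of Hoxa9 therefore rests on 1 of its 2 probe sets. Hoxa9 is also active in vessel walls. The summed signal of endothelial markers, 8 of 8 measured, was 824.9 to 1172.6 in mutant pads and 1288.3 to 1649 in wild-type pads, without overlap. The mean sums differed by -419, of which -314 came from 1 gene, Sox18, a transcription factor of lymphatic and blood vessels. Sox18 read 415.7, 300.4 and 220.8 in mutant pads against 767.5, 594.3 and 517.5 in wild-type pads (limma adjusted p = 0.687). Of the 8 markers, 6 were lower in the mutant, 3 of them (Sox18, Flt4 and Robo4) at an unadjusted p under 0.05, where 2.34% of all genes were, and 0 by adjusted p. Of the other 5, Tek differed by -0.27 on the log2 scale, with every mutant value below every wild-type value. Pecam1 differed by -0.07, Cdh5 by -0.09, Kdr by 0.03 and Tie1 by 0.33, with overlapping groups. All but Tie1, which was above background on 2 arrays, were above it on all arrays. The part of endothelium in the Hoxa9 value was not tested.

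Hoxc6, a gene of the thoracic level and the mammary gland, was measured by 3 probe sets. At 1427361_at it read 105.7, 126.5 and 75.9 in mutant pads and 90.1, 72.3 and 119.4 in wild-type pads, which overlapped throughout. The difference was 0.11 (95% interval -0.44 to 0.66, limma adjusted p = 0.995), with the sign turning to -0.04 without wild-type replicate 2 and to -0.03 without mutant replicate 2. At 1427362_x_at, whose name marks sequence shared with other transcripts, the values were 110.9, 122.9 and 100.2 in mutant pads and 21.6, 78.5 and 122.1 in wild-type pads. Its 1 value under background, wild-type replicate 1, set most of the difference, which was 0.69 (limma adjusted p = 0.984) with that array and 0.15 without it. Without wild-type replicate 3 the difference was 1.09. The remaining probe set, 1427454_at, read 3.1 to 17.5 on the 6 arrays.

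Hoxd1, which in the mouse marks a class of pain-sensing sensory neurons, read 76, 83.3 and 39.9 in mutant pads and 136.7, 40.4 and 62.4 in wild-type pads. The wild-type values spanned all the mutant values but 1. The difference was -0.13 (95% interval -1.05 to 0.78, limma adjusted p = 0.995), and it turned to 0.27 without wild-type replicate 1 and to 0.12 without mutant replicate 3. Hoxd8, a gene of trunk patterning, read 64.5, 44.5 and 58.4 in mutant pads and 87.2, 52.6 and 79.3 in wild-type pads. The groups overlapped through wild-type replicate 2, with a difference of -0.30 (95% interval -0.79 to 0.20, limma adjusted p = 0.987). The Hoxd8 difference was -0.48 without wild-type replicate 2 and -0.18 without either wild-type replicate 1 or mutant replicate 2.

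Besides these, Hoxb4 and Hoxb7 were above background on all 3 wild-type arrays. Hoxb4, also of blood progenitors, read 62.7, 12.1 and 8.7 in mutant pads and 35, 53.1 and 41.3 in wild-type pads at probe set 1460379_at. Mutant replicate 1 was the highest of the 6 and the other mutant arrays were the lowest, so the difference of -0.63 (95% interval -1.62 to 0.36, limma adjusted p = 0.987) was -1.16 without that array and -0.32 without mutant replicate 3. The other Hoxb4 probe set, 1451761_at, read 5.8 to 32.1. Hoxb7, a trunk gene also active in kidney ducts, read 50.3, 38.6 and 23.5 in mutant pads and 37.5, 41 and 41.7 in wild-type pads. Its mutant values lay on both sides of the wild-type ones (difference -0.10, 95% interval -0.60 to 0.40, limma adjusted p = 0.995), and the sign turned to 0.10 without mutant replicate 3. A probe set shared by Hoxb8 and Hoxb7, outside the rule, read 54.3, 17.9 and 25.6 in mutant pads against 33.1, 20.5 and 27.9 in wild-type pads.

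Mutant replicate 3, the array with the highest actin ratio, gave the lowest mutant value of Hoxa9, Hoxd1, Hoxb4, Hoxb7 and the Hoxc6 probe sets 1427361_at and 1427362_x_at. The lowest mutant value of Hoxd8 was on mutant replicate 2, and Hoxc9, described next, had its highest mutant value on mutant replicate 3. Whether RNA quality had a part in these values was not tested.

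Mutant pads were compared with wild-type pads to ask whether any Hox gene depended on Trps1 at this stage. None of the 37 probe sets passed limma when p-values were adjusted by Benjamini-Hochberg over all 22626 probe sets, nor did any other mouse probe set (0% called). The lowest adjusted p of a Hox probe set was 0.845, that of Hoxc9. The methods' t-test after the same adjustment also called 0. At an unadjusted p under 0.05 there were 3 Hox probe sets higher in the mutant, Hoxc9, Hoxd11 and Hoxa4, and 1 lower, Hoxc8. Over all mouse probe sets these shares were 2.9% and 2.37%, and 5.27% in either direction, against 4 of 37 (10.8%) for Hox. The study's cut-offs, an unadjusted p of at most 0.05 and 1.5-fold by the methods' t-test, were applied on the scale used for all differences here. On that scale 2 of 37 Hox probe sets passed, where 359 of 22626 mouse probe sets (1.59%) did. The fold was not taken from the authors' own values, so these 2 need not pass in the study itself. The authors' deposited table of 65 probe sets holds 0 of the 37.

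Hoxc9, known for setting the thoracic level of motor neurons, was the Hox gene with the smallest unadjusted p. It read 37.9, 31.3 and 61.9 in mutant pads and 25.3, 17.3 and 10.9 in wild-type pads. All mutant values were above all wild-type values, yet only 2 of the 3 mutant arrays and 0 of the 3 wild-type arrays were above background. The difference was 0.81 (SE 0.25, 95% interval 0.23 to 1.39, limma adjusted p = 0.845), and 0.60 to 0.96 with each array left out in turn. It was 0.45 with both replicate 3 arrays left out, 0.40 with signals below 32 set to 32, and 1.26 with 1 in place of 16 added before the log. An exact permutation test of 3 arrays against 3 cannot give a p under 0.1.

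The 3 others read under background on all 6 arrays, so their differences are not to be read as folds of transcript. Hoxd11, which with Hoxa11 shapes the forearm, read 8, 23.7 and 18.9 in mutant pads against 4.1, 2.1 and 6.2 in wild-type pads (limma adjusted p = 0.885). Hoxa4, a gene of the neck level, read 9.3, 18 and 14.3 in mutant pads against 8.2, 3.1 and 2 in wild-type pads at 1420226_x_at (limma adjusted p = 0.92). The name of that probe set, too, marks sequence shared with other transcripts. The other Hoxa4 probe set, 1427354_at, read 3.2, 1.7 and 3.3 in mutant pads against 1.1, 6.4 and 8 in wild-type pads and did not share that order. Hoxc8, of the lower thoracic level, read 0.7, 2.5 and 1.2 in mutant pads against 6, 23.4 and 6.1 in wild-type pads (limma adjusted p = 0.93). With signals below 32 set to 32, the differences of all 3 were 0. The Hoxc8 difference, -0.62 over all arrays, was -0.34 without wild-type replicate 2.

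Groups did not overlap at 5 of 37 Hox probe sets, these 4 and Hoxd10, where 10.2% of all mouse probe sets did not overlap, so the share of 13.5% was near the background. By direction 3 were higher in the mutant (5.41% of all mouse probe sets) and 2 lower (4.76%). Over all 37 the median difference was -0.08, with 14 higher and 23 lower in the mutant, against a median of 0.0029 over all mouse probe sets. The medians were -0.09 for HoxA, -0.08 for HoxB, 0.02 for HoxC and -0.13 for HoxD. They were -0.13 for paralogs 1 to 3, -0.02 for paralogs 4 to 8 and -0.08 for paralogs 9 to 13. The 26 probe sets not named by the rule differed by -0.39 to 0.46, and the smallest unadjusted p among them was 0.149. Of those 26, 17 were above background on 0 arrays, and the other 9 read 4.7 to 71.1. The 95% interval reached a change of 1.5-fold or more at 31 of the 37 probe sets, among them all 4 above background on all arrays. That fold was taken on the scale used for all differences here, which pulls dim genes towards 0. Of the remaining probe sets, all but that of Hoxa13 were above background on 0 arrays. Their narrower intervals therefore do not exclude such a change of transcript.

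**Figure D3:**
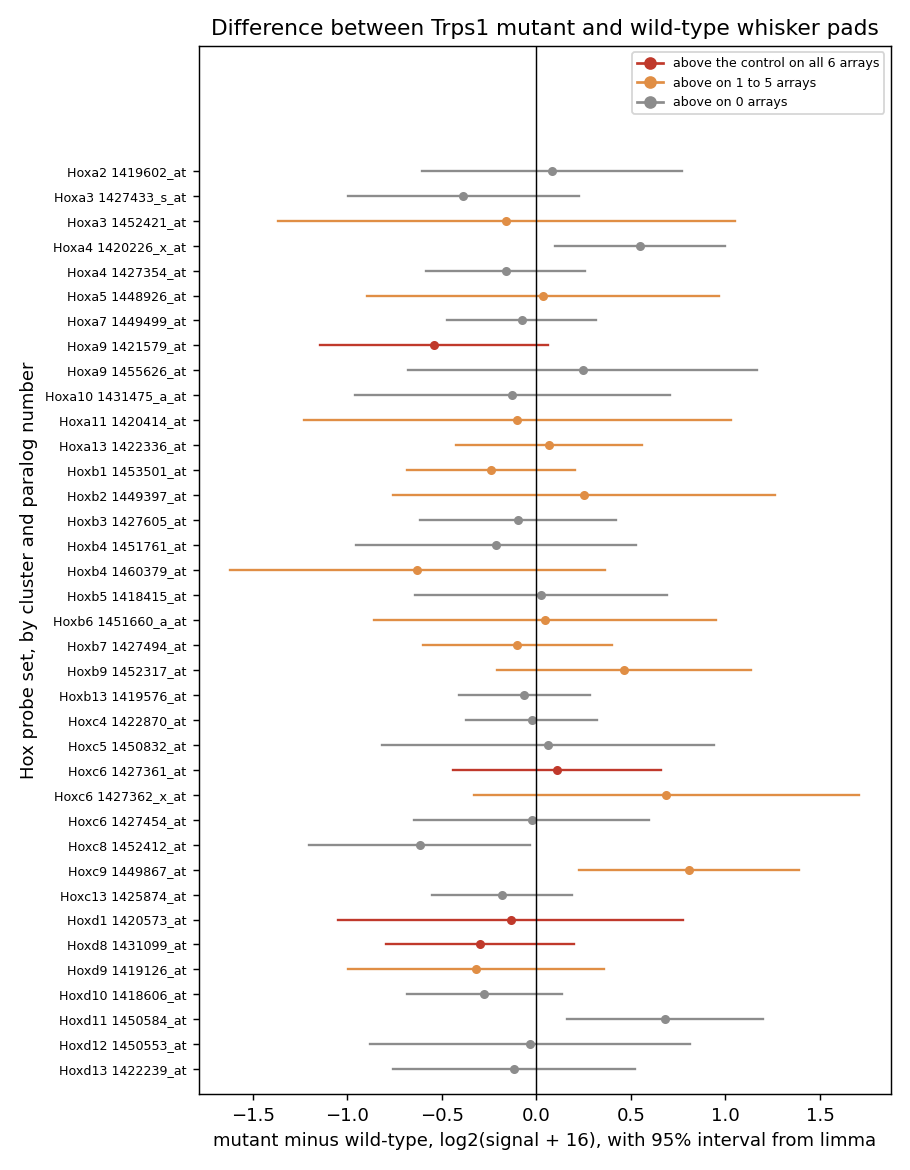
Difference between mutant and wild-type pads for each Hox probe set (points, log2(signal + 16) scale) with its 95% interval from limma, coloured by the number of arrays above the highest bacterial control. The intervals that leave out 0 are those of Hoxa4 (1420226_x_at), Hoxc8, Hoxc9 and Hoxd11, and none of these genes was above the control on more than 2 arrays.

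Genes that work with Hox proteins or set their expression were read in the same pads, each by its brightest probe set. Of the TALE homeodomain proteins, Pbx, Meis and Pknox bind DNA together with Hox proteins but also act without them, and Tgif proteins are repressors of the same class. Of 10 genes of the class measured, 9 were above background on all arrays and 0 passed the adjusted test, with 4 higher and 6 lower in the mutant and a median difference of -0.05. Without Tgif1 and Tgif2, 7 of 8 were above background on all arrays, 4 were higher and 4 lower, and the median was 0.0077. Meis2 read 1029.8, 963.1 and 1001.7 in mutant pads and 600.2, 670.6 and 853.5 in wild-type pads, with every mutant value above every wild-type value (difference 0.50, SE 0.18, limma adjusted p = 0.92). Meis1 read 336.5, 288.6 and 309 in mutant pads against 227.9, 306.1 and 295.1 in wild-type pads, which overlapped.

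Polycomb and trithorax group genes keep Hox genes silent or active. Of 21 measured, 20 were above background on all arrays, 7 were higher and 14 lower in the mutant, and 0 passed (median -0.07). Kdm6a, a demethylase that removes the Polycomb mark and lies on the X chromosome, read 197.5, 164.8 and 171.4 in mutant pads against 138.7, 112.3 and 126.7 in wild-type pads (difference 0.45, SE 0.16, limma adjusted p = 0.92). Ezh2, the enzyme that writes the mark, read 1228.3, 1254.7 and 1667.4 in mutant pads against 1433.4, 1701.6 and 1334.6 in wild-type pads, and the groups overlapped.

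Retinoic acid activates the low-numbered Hox genes in the hindbrain. Of 15 measured genes of its pathway 10 were above background on all arrays, 6 were higher and 9 lower in the mutant, and 0 passed (median -0.22, against 0.00017 over all genes). The retinol transporter gene Stra6 read 7.1, 20.6 and 13.5 in mutant pads against 25.5, 52.9 and 96.3 in wild-type pads, with 0 of 3 mutant and 2 of 3 wild-type arrays above background (difference -1.23, SE 0.36, limma adjusted p = 0.82). Crabp2, which carries retinoic acid in the cell, read 1644.4, 1702.2 and 1679.4 in mutant pads against 1741.3, 2050.7 and 2289.5 in wild-type pads, a difference of -0.26 (limma adjusted p = 0.976).

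Of 12 measured homeobox relatives of the trunk, gut and nervous system, 1 was above background on all arrays and 8 on 0 arrays, and 0 passed the adjusted test (6 higher, 6 lower, median 0.00094). Cdx1, Cdx2 and Cdx4, which drive Hox genes in the trunk, were among the 8. Evx2, the gene at the end of the HoxD cluster, was the 1 above background, at 56.9, 66.7 and 36.1 in mutant pads against 66.4, 63.9 and 53.3 in wild-type pads.

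**Figure D4:**
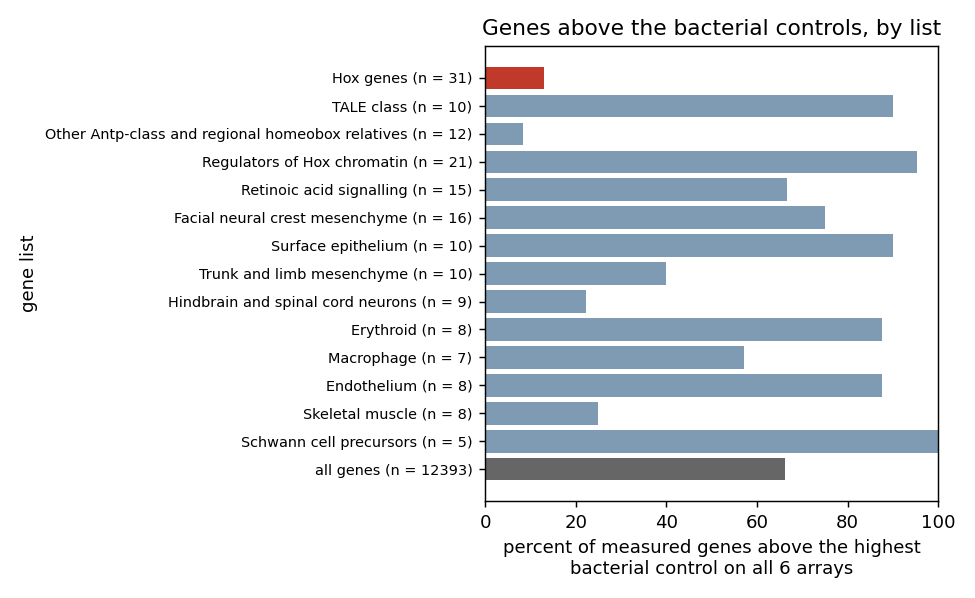
Percent of measured genes above the highest bacterial control on all 6 arrays, for the Hox genes (top), for other gene lists and for all genes (bottom), with the number of genes measured in brackets. For Hox genes it is 12.9%, for the TALE class 90%, for Hox chromatin regulators 95.2% and for all genes 66.3%.

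Markers of tissues in which Hox genes are active were counted beside these values. Of 9 measured markers of hindbrain and spinal cord neurons, 2 were above background on all arrays, and Phox2a and Olig2 were on 0. Of that list 7 were higher and 2 lower in the mutant, with summed signals of 318 to 451.7 in mutant pads and 270.2 to 351.1 in wild-type pads. Phox2a and Mnx1 were higher at an unadjusted limma p of 0.016 and 0.049, where 334 of all 12393 genes were higher at a p under 0.05. Neither was above background on more than 1 array. Of 10 markers of trunk and limb mesenchyme, 4 were above background on all arrays and Nkx3-2, Uncx and Lmx1b on 0, with sums of 820.6 to 1442.5 in mutant pads and 902.5 to 1731.1 in wild-type pads. The 4 were Pax1 and Tbx15, which are also genes of the pharynx and the head, Tbx18 (55.3 to 269.8 over the 6 arrays) and the somite gene Tcf15 (49.4 to 106.2). Skeletal muscle had 2 of 8 above on all arrays, with sums of 283.2 to 371.7 in mutant pads and 251.7 to 378.4 in wild-type pads. Erythroid markers had 7 of 8 above (sums of 23116.5 to 26165.4 in mutant and 24440.7 to 28847.1 in wild-type pads), and macrophage markers 4 of 7 (486.5 to 573.7 in mutant and 431.6 to 517 in wild-type pads). Surface epithelium had 9 of 10 above (2790.4 to 4277 in mutant and 3008.1 to 4758.8 in wild-type pads). Schwann cell precursors had 5 of 5 above, with sums that did not overlap, 721.2 to 769.3 in mutant pads and 862.7 to 1030.4 in wild-type pads. The mean sums differed by -221, of which -174 came from Ngfr, a receptor also found outside this lineage, and -47.9 from Fabp7, a fatty acid carrier. Each of these 2 had all mutant values below all wild-type values. Their unadjusted limma p was 0.0073 and 0.0196, and 2.34% of all genes were lower at a p under 0.05. The other markers of the list, Sox10, Foxd3 and Erbb3, differed by -0.0051, -0.02 and 0.0022 on the log2 scale, with overlapping groups. In none of these lists did a gene pass the adjusted test, and their part in the Hox values was not tested.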

How the data were processed

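RNA of 6 whisker pads, 3 Trps1 mutant and 3 wild-type, was hybridised to 6 one-colour arrays, per the labels. The authors deposited 1 linear intensity per probe set and array (22690 in all), already at a common level, and no source used here names the software that summarised the probes. A list of 65 probe sets, each with a fold ratio and log2 group values, was deposited too; it came from GeneSpring GX 10.0, per the submitters' design text. It was used only to look up Hox probe sets.

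The 64 control probe sets were left out. Signals were used as deposited, and 16 was added before log2, which pulls dim genes towards 0. All 22626 mouse probe sets were fitted with limma 3.58.1 in R 4.3.3 (lmFit and eBayes, two-sided, no covariates) with Benjamini-Hochberg adjustment and a threshold of 0.05. Background was the highest of 27 Bacillus control probe sets over the 6 arrays. Names came from the platform annotation, and all 37 members matched the reference (GRCm38.p6) by gene number. Precision is limited by the 6 arrays. At most 0.358% of probe sets had the same signal on any pair of arrays.

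The members and the lists were chosen with earlier results of these data known. Named with values were Hox probe sets above background on all 3 arrays of a group, with an unadjusted p under 0.05, or with separate groups at 1.5-fold or more, any in the authors' table, the other probe sets of these genes, and up to 4 members of each list by p. Hoxa2, Hoxa3, Hoxa7, Hoxa10, Hoxa11, Hoxa13, Hoxb1, Hoxb2, Hoxc5, Hoxc13, Hoxd9, Hoxd10, Prrx1, Ezh2, Evx2, Xist, the probe sets outside the rule and the list members beyond those 4 were chosen after their values were seen. Same-numbered arrays had deviations that correlated at 0.038, 0.069 and 0.14 over all probe sets, not above 0.1 in every pair, so the fit without a block was kept. Over the 6551 probe sets with a mean log2 value above 8 the same correlations were 0.139, 0.284 and 0.325, above 0.1 in every pair, and over the Hox probe sets they were -0.222, -0.0241 and -0.269. With the block the adjusted count of Hox probe sets was 0 as well. On simulated arrays of 22626 probe sets, 19 of 100 changes of log2 1 and 75 of 100 of log2 2 were called, with 4 false calls.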

Additional observations from a re-analysis of the deposited data

How the results depend on the processing

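Recomputed under 18 alternatives, the number of Hox probe sets past the adjusted threshold stayed at 0, with the replicate number as a block too. The lowest adjusted p of a named probe set in any of them was 0.583. The count at an unadjusted p under 0.05 was 4 of 37 (10.8%, against 5.27% of all mouse probe sets). It was 0 of 5 with the 7542 dimmest probe sets left out (5.04% of all those kept). With signals below 32 set to 32 the count was 0 (4.93% of all). With both replicate 3 arrays left out it was 2 (5.41%, against 8.21% of all). With each array left out it was 2 to 5 (5.41% to 13.5%, against 4.64% to 7.80% of all). The count was 2 when either replicate 2 array, mutant or wild-type, was left out (4.79% and 4.64% of all). With the replicate block it was 5 (13.5%, against 5.72% of all). The number above background on all arrays, 4, was 4 to 5 with each array left out and 1 at 67.6, 2 times the highest control. The median difference, -0.08, was 0 with the floor, 0.0091 with array weights, 0.0595 with both replicate 3 arrays left out and -0.12 to -0.0029 with each array left out. Signs turned for Hoxb7 and Hoxd1 with both replicate 3 arrays left out (0.12 and 0.0426). With each array left out Hoxb7 ranged from -0.27 to 0.10, Hoxd1 from -0.45 to 0.27 and Hoxc6 (1427361_at) from -0.0372 to 0.28. The causes were not tested, except that the floor sets values below 32 equal and the filter removes all but 5 Hox probe sets. The labels do not say what a shared replicate number stands for. Signals near background limit the differences of most Hox genes.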

Other observations

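The forelimb gene Tbx5 and the Hoxa3 probe set 1452421_at, named after their values were seen, had their higher values on the same arrays. Tbx5 read 55, 8.1 and 10.4 in mutant pads and 60.9, 18.7 and 104.7 in wild-type pads. Hoxa3, a gene of the throat and neck, read 62.7, 10.1 and 10 in mutant pads and 33.4, 7.9 and 46.9 in wild-type pads. On mutant replicate 1 and wild-type replicates 1 and 3 both were at their 3 highest values. The other Hoxa3 probe set, 1427433_s_at, read 2 to 20.8 and did not show these arrays apart. No other marker of the trunk and limb list had its 3 highest values on these arrays. Tbx18 read 141.2 on wild-type replicate 2 against 97.3 on wild-type replicate 3, and Tcf15 was highest on mutant replicate 2 (106.2). Whether the Tbx5 and Hoxa3 values were related was not tested.

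The posterior genes Hoxa11 and Hoxa13, also named after their values were seen, varied between embryos, and their groups overlapped. Hoxa11 read 32.9, 36.9 and 20.8 in mutant pads and 54.5, 5.1 and 62.9 in wild-type pads. Hoxa13 read 31.2, 44.1 and 44.2 in mutant pads and 25.3, 43.5 and 44.7 in wild-type pads, above background on 4 of 6 arrays. The antisense transcript Hoxa11os read 6.1, 11.4 and 12.4 in mutant pads and 11.4, 29.6 and 12.6 in wild-type pads, all under background.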
